A study of Mus musculus with 2 samples.

Results

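The transport genes described here are 37 genes that the authors listed as differing in CD8 single-positive thymocytes between the genotypes CIITAtgpIV-/- and B6 wild type, and whose gene ontology annotation contains the word transport. They carry water, ions, nutrients, drugs, lipids, electrons, vesicles or nuclear cargo. Of the 59 listed probe sets with a transport term, 9 were left out because a further term names signalling, transcription, DNA replication, mitosis, cell division or the cell cycle. A further 8 were left out by gene (haemoglobin chains, the class II invariant chain, Aqp11 and fatty acid desaturases), which left 42 probe sets. These 42 stand for 37 of the 791 listed genes with a symbol, and 34 of the 37 had 1 probe set each.

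Affymetrix arrays measured the RNA of CD8 single-positive thymocytes, the cells that have passed selection and keep the co-receptor CD8, taken by magnetic sorting from mice aged 8 weeks. The B6 wild-type group and the CIITAtgpIV-/- group, also on the B6 background, each had 1 array of RNA pooled from 2 to 4 thymuses. CIITA switches on MHC class II genes. By its name, the mutant genotype joins a CIITA transgene to the loss of promoter IV of Ciita. The promoter that drives the transgene is not given in the sources used here. With 1 array per group no difference below has a replicate check, an error or a p-value, so precision is limited by the number of arrays. In such bulk samples, fewer cells of a type and less RNA per cell cannot be told apart.

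Transport proteins move what cannot cross a membrane unaided. Channels and aquaporins open a pore, solute carriers bind and release a substrate, and ABC transporters spend ATP to export it. Inside the cell, tethers and fusion proteins route vesicles, importins and export adaptors take cargo through nuclear pores, and kinesins walk along microtubules. T cells use these systems to take up nutrients, to set their membrane potential and to deliver lytic granules.

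Of the 37 genes, 11 were higher and 26 were lower in CIITAtgpIV-/-. The members were chosen by this same difference, since the authors listed only probe sets that differ by at least 2-fold, so the counts and values are a description. Of the 28560 probe sets in the identifier range that the authors listed from, 3.51% differed by at least 2-fold, with 0.977% higher and 2.54% lower. Signals are log2 values, normalised by the authors, and differences are CIITAtgpIV-/- minus wild type on the log2 scale. As yardsticks of size only, the robust standard deviation of the difference over those probe sets was 0.25, and each gene was ranked against the 500 probe sets nearest in mean signal. An expression floor was set at 5.42, which is the median, across the whole array, of each probe set's brighter value, and 36 of the 37 genes reached it in at least 1 array. Cybb was the exception.

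Past the floor, 11 genes were higher and 25 lower, so 69.4% were lower, where 73.0% of the 741 listed genes past the floor were. The median difference was 1.73 among the higher genes and -1.23 among the lower ones, where all listed genes had 1.42 and -1.62. At 3-fold or more, 6 of the 11 higher and 7 of the 25 lower transport genes remained. Among all listed genes past the floor, 81 of 200 higher and 282 of 541 lower ones did. The gene farthest above was Aqp9 at 3.32 and the gene farthest below was Sytl3 at -3.34. By role, the 4 nuclear transport genes, 2 kinesins and 1 electron carrier were all lower, and channels and solute carriers were evenly split. These groups are small, 73.0% of all listed genes past the floor were lower, and the difference between roles was not tested.

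**Figure D1:**
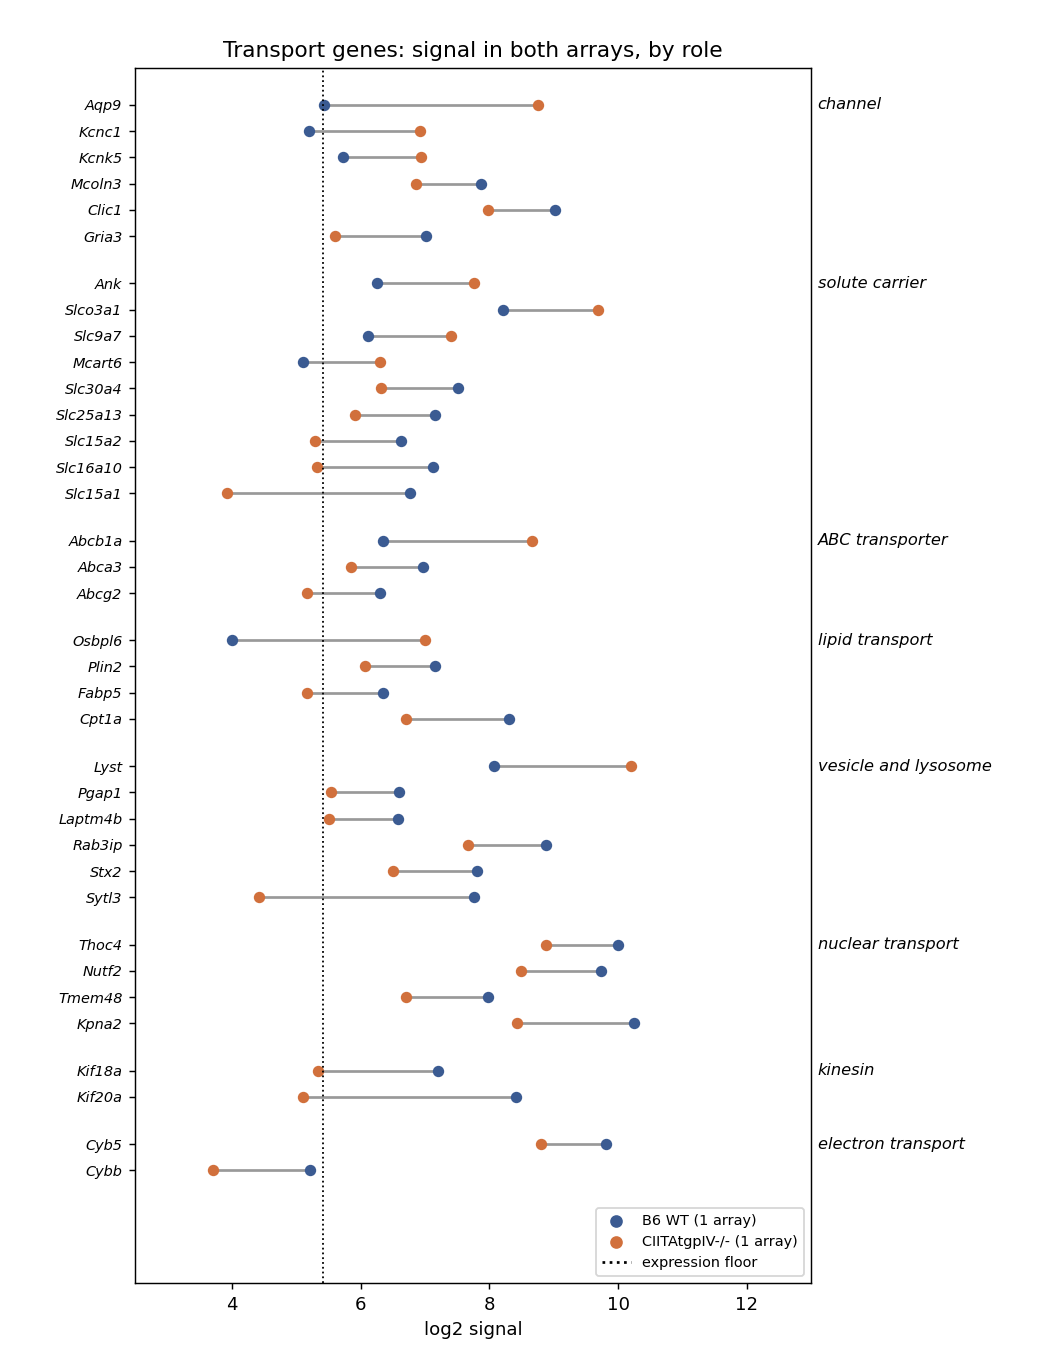
Log2 signal of 36 of the 37 transport genes (vertical axis, grouped by role) in the B6 WT array (blue) and the CIITAtgpIV-/- array (orange), each point being 1 array and the dotted line the expression floor of 5.42. Cybb, below the floor in both arrays, is drawn too. Channels and solute carriers hold genes moving both ways, and for the 4 nuclear transport genes, 2 kinesins and 2 electron transport genes the CIITAtgpIV-/- point lies left of the wild-type point.

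The label of transport covers genes of unlike kind. Kif18a and Kif20a are kinesins of the dividing cell whose annotation in the authors' table holds no cell division term. Gria3 is a subunit of a glutamate receptor, and Cyb5 and Cybb carry electrons. The term transport alone stood in the annotation of 34 genes, while Plin2, Stx2 and Sytl3 entered through a longer term such as intracellular protein transport.

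Promoters are shown for the nuclear transport genes and the kinesin that were lower together, with Abcb1a from the higher genes beside them. Each is the 250 bases before the gene's start, 5′ to 3′ on the gene's strand, from RefSeq on GRCm38.p6. Capitals mark TTTGAA, the core of the CHR element of many cell cycle promoters, and CCAAT, the box bound by the factor NF-Y, each searched on both strands. The motifs and the genes shown were picked after the values were seen. Nutf2 is left out because its listed probe sets lie away from the gene, as described further on, and Kif20a is not shown.
Kpna2, chr11:106999526-106999775, minus strand: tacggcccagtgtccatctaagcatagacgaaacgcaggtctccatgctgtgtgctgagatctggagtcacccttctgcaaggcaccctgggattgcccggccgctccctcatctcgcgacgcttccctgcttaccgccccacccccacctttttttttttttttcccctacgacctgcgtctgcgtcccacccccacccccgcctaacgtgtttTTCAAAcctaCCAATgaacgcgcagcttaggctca
Tmem48 (RefSeq Ndc1), chr4:107367797-107368046, plus strand: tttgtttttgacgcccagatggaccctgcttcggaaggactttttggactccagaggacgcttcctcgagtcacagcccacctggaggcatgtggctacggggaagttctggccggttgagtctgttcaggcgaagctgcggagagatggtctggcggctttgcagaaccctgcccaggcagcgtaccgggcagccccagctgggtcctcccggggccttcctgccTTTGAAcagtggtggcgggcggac
Thoc4 (RefSeq Alyref), chr11:120598366-120598615, minus strand: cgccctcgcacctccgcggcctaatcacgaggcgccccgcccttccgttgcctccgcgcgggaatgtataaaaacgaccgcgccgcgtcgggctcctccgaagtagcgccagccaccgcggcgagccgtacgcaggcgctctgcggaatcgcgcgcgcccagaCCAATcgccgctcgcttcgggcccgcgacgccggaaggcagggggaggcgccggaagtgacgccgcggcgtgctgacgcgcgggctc
Kif18a, chr2:109280488-109280737, plus strand: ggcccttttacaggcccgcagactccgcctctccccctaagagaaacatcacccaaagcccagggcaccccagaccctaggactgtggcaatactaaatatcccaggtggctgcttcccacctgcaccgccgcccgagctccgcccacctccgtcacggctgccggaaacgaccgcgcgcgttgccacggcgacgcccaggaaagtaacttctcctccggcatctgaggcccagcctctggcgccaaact
Abcb1a, chr5:8566841-8567090, plus strand: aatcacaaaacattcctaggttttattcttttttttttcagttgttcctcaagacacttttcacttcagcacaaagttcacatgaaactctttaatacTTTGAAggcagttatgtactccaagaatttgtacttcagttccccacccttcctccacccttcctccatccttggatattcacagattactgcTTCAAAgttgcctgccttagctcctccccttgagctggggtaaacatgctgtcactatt
Kpna2 holds both motifs, CCAAT beginning 25 bases before the start and TTTGAA, on the reverse strand, beginning 35 bases before it. Tmem48 holds TTTGAA alone, 24 bases before the start, and Thoc4 holds CCAAT alone, 87 bases before it. Kif18a holds neither in this window. Abcb1a, a higher gene, holds TTTGAA at 152 bases before its start and again, on the reverse strand, at 59.

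RefSeq promoter windows were found for 30 of the 37 genes. TTTGAA stood in those of 6 genes (20%), 1 of 9 higher and 5 of 21 lower, where 16.0% of all 32851 windows hold it. CCAAT stood in those of 11 genes (36.7%), 3 of 9 higher and 8 of 21 lower, against 33.8% of all windows. Some genes have several windows and were counted once if any held the motif. Both shares lie near those of all windows, and a match is a description of the letters only.

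Of 6 channel genes, 3 were higher in CIITAtgpIV-/-, an aquaporin and a pair of potassium channels, and 3 were lower, an endolysosomal cation channel, a chloride channel protein and a glutamate receptor subunit. The other listed aquaporin, Aqp11, which the rule leaves out, differed by -4.36. Aqp9 encodes an aquaporin that passes water and glycerol, and in mice it is known to serve glycerol uptake in memory CD8 T cells. Its signal was 5.43 in wild type, just above the floor, and 8.75 in CIITAtgpIV-/-, a 9.96-fold difference. A difference of that size was held by 0.2% of the 500 nearest probe sets. The authors' table places it on chromosome 9 (70958466 to 71011096, minus strand). That table names no genome build, so its positions are given as it states them.

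Kcnc1 encodes the Shaw-related potassium channel Kv3.1, the source of a voltage-gated potassium current described in mouse T cells. It went from 5.19, below the floor, in wild type to 6.93 in CIITAtgpIV-/-, a 3.33-fold difference. Kcnk5, a background potassium channel sensitive to pH and cell volume, had 5.72 and 6.93 and was 2.32-fold higher. These were the 2 potassium channel genes with a Kcn symbol in the authors' table. For Kcnc1 and Kcnk5, 3.4% and 6.6% of the 500 nearest probe sets differed by as much.

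Gria3, the AMPA receptor subunit, was 2.68-fold lower, from 7.02 to 5.60. Clic1, a chloride intracellular channel protein, had 9.03 in wild type and 7.98 in CIITAtgpIV-/-, a difference of -1.05. Mcoln3, a cation channel of endosomes and lysosomes, had 7.87 and 6.86, a difference of -1.01. Clic1 and Mcoln3 were therefore among the genes nearest to the threshold. Under quantile normalisation or loess both came under 2-fold.

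Of the 10 solute carriers, 5 were higher and 5 were lower. Those described among the higher ones carry organic anions, pyrophosphate or protons, or belong to the mitochondrial carrier family, and the lower ones carry peptides, aromatic amino acids, aspartate or zinc. Slc16a10, known as TAT1, carries aromatic amino acids and was 3.48-fold lower, from 7.12 to a CIITAtgpIV-/- value of 5.32, which was below the floor.

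The 4 higher carriers described here differed by 1.19 to 1.51 on the log2 scale. Ank, which lets pyrophosphate and ATP leave the cell, was 2.85-fold higher (6.26 and 7.77). Slco3a1, an organic anion transporter that accepts prostaglandins, was 2.78-fold higher (8.22 and 9.69), and 2% of the 500 nearest probe sets differed by as much. Slc9a7, which exchanges sodium or potassium for protons in the trans-Golgi network, was 2.44-fold higher (6.12 and 7.41). Mcart6, named Slc25a53 in RefSeq and a member of the mitochondrial carrier family, was 2.29-fold higher (5.11 and 6.30), from a wild-type value below the floor. For Ank, Slc9a7 and Mcart6, 5.2%, 6% and 3.2% of the nearest probe sets differed by as much.

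Both listed proton-coupled peptide transporters were lower in CIITAtgpIV-/-. Slc15a1, known as PEPT1, takes up small peptides in the intestine. It had 6.76 in wild type and 3.92 in CIITAtgpIV-/-, a 7.17-fold difference. Slc15a2, known as PEPT2, the form of higher affinity, was 2.52-fold lower, from 6.63 to 5.30. For both, the CIITAtgpIV-/- value was below the floor, where robust multi-array averaging compresses differences.

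Slc25a13 encodes citrin, the mitochondrial aspartate and glutamate carrier of the malate-aspartate shuttle, and was 2.35-fold lower, from 7.15 to 5.92. Slc30a4, which loads zinc into vesicles, was 2.30-fold lower, from 7.52 to 6.31. Of the 500 nearest probe sets, 6.4% differed by as much as Slc25a13 and 6% by as much as Slc30a4.

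Abcb1a was the only higher gene of the 3 listed ABC transporters. It encodes a mouse P-glycoprotein, the drug efflux pump. It went from 6.35 in wild type to 8.67 in CIITAtgpIV-/-, a 4.99-fold difference, and 1.8% of the 500 nearest probe sets differed by as much. Abcg2, a drug and porphyrin exporter used to mark stem cells, was 2.21-fold lower, from 6.31 to 5.17. Its CIITAtgpIV-/- value was below the floor. Abca3, which loads phospholipid into lamellar bodies in the lung, was 2.18-fold lower, from 6.97 to 5.85. The authors' table places Abcb1a on chromosome 5 (8660077 to 8748519, plus strand).

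Among 4 genes of lipid transport, Osbpl6 was higher and 3 genes of fatty acid handling were lower. Osbpl6, of the oxysterol-binding protein family, went from 3.997, below the floor, in wild type to 6.997 in CIITAtgpIV-/-, an 8.00-fold difference. Cpt1a, the rate-limiting enzyme of long-chain fatty acid entry into mitochondria, was 3.04-fold lower, from 8.31 to 6.71. Fabp5, a fatty acid chaperone, was 2.28-fold lower, from 6.35 to a CIITAtgpIV-/- value of 5.16, which was below the floor. Plin2, a coat protein of lipid droplets, was 2.12-fold lower, from 7.15 to 6.07, and 9% of the 500 nearest probe sets differed by as much.

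**Figure D2:**
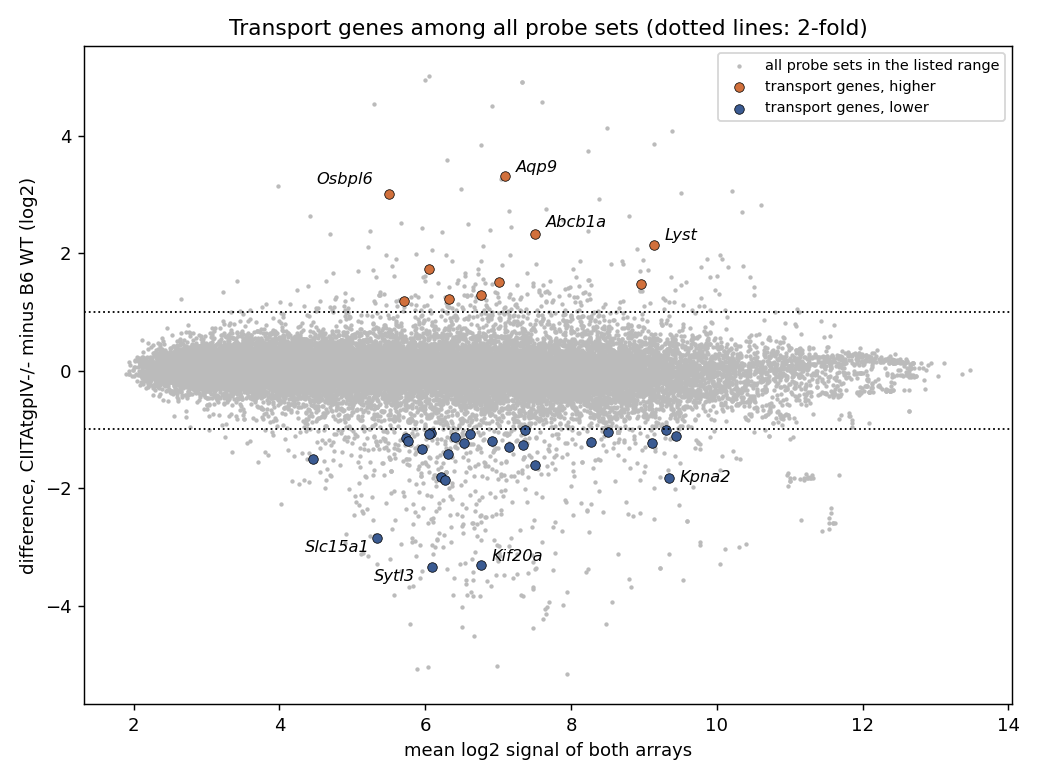
Difference between the arrays (CIITAtgpIV-/- minus B6 WT, log2) against the mean log2 signal, for the 28560 probe sets of the listed range (grey) and for 36 of the 37 transport genes (orange higher, blue lower), with dotted lines at 2-fold. Aqp9 and Osbpl6 lie farthest above the grey band, Sytl3 and Kif20a farthest below it, and the other lower genes, except Slc15a1, lie between -1.01 and -1.86.

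Genes of vesicles and lysosomes included 1 higher and 5 lower members. Lyst, the lysosomal trafficking regulator lost in beige mice, governs the size of lysosomes and lytic granules. It was 4.40-fold higher, from 8.07 to 10.2, and 0.8% of the 500 nearest probe sets differed by as much. Sytl3, a synaptotagmin-like effector of Rab27 that takes part in moving lytic granules, lay the other way, from 7.76 in wild type to 4.42 in CIITAtgpIV-/-, a 10.1-fold difference. Lyst was above the floor in both arrays, whereas Sytl3 was below it in CIITAtgpIV-/-. The authors' table places Lyst on chromosome 13 (13682676 to 13869710) and Sytl3 on chromosome 17 (6631731 to 6942393).

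The 4 other lower genes of this role differed by -1.06 to -1.30. Stx2, a syntaxin of membrane fusion at the cell surface, was 2.47-fold lower, from 7.81 to 6.50. Rab3ip, an exchange factor for Rab8, was 2.32-fold lower, from 8.88 to 7.66. Laptm4b, a lysosomal membrane protein, had 6.59 and 5.51. Pgap1, which trims the lipid anchor of GPI-linked proteins in the endoplasmic reticulum, had 6.60 and 5.54. For Laptm4b and Pgap1, 7.4% and 7.6% of the nearest probe sets differed by as much.

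All 4 nuclear transport genes were lower in CIITAtgpIV-/-, and each was above the floor in both arrays. Kpna2, an importin alpha that carries proteins into the nucleus and is abundant in dividing cells, was 3.54-fold lower, from 10.3 to 8.43. Tmem48, named Ndc1 in RefSeq and a membrane-spanning nucleoporin, was 2.41-fold lower, from 7.98 to 6.70. Nutf2, which brings Ran back into the nucleus, had 9.73 and 8.50, a 2.35-fold difference. Thoc4, named Alyref in RefSeq and an adaptor of mRNA export, was 2.16-fold lower, from 9.995 to 8.88.

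Kpna2, Nutf2 and Fabp5 were listed with several probe sets at different places in the genome, and the brightest stands for each gene above. The 3 probe sets of Kpna2 differed by -1.79, -1.80 and -1.82 and are placed on chromosomes 11, 17 and 3, where the RefSeq gene table of GRCm38.p6 has Kpna2 on chromosome 11. The 3 probe sets of Nutf2 differed by -1.18, -1.23 and -1.23, and those on chromosomes 18 and 19 have equal values. RefSeq has Nutf2 on chromosome 8, where none of the 3 lies, and has Nutf2 pseudogenes on chromosomes 18 and 19. The probe sets of Fabp5 on chromosomes 3 and 9 differed by -1.16 and -1.19, with RefSeq placing the gene on chromosome 3. Such copies can share signal, so these probe sets are not separate observations, and which locus gave the signal is uncertain.

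**Figure D3:**
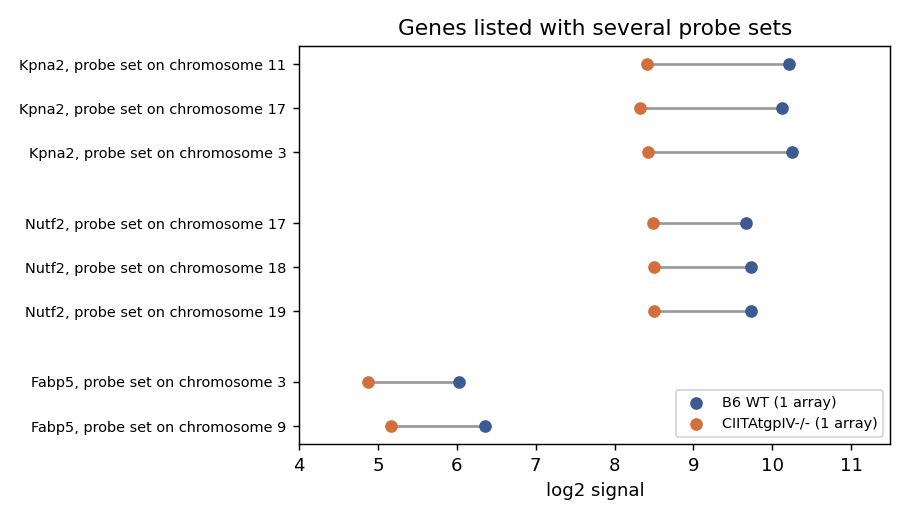
Log2 signal of each probe set of Kpna2, Nutf2 and Fabp5 in the B6 WT array (blue) and the CIITAtgpIV-/- array (orange), labelled with the chromosome that the authors' table gives. Probe sets of 1 gene have nearly the same difference, between -1.79 and -1.82 for Kpna2, between -1.18 and -1.23 for Nutf2 and between -1.16 and -1.19 for Fabp5.

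Both kinesins were lower. Kif20a, a kinesin of cytokinesis that moves the chromosomal passenger complex to the midzone, went from 8.41 in wild type to 5.11 in CIITAtgpIV-/-, a 9.86-fold difference. Kif18a, a kinesin that limits chromosome movement at metaphase, was 3.63-fold lower, from 7.20 to 5.34. The CIITAtgpIV-/- values of both were below the floor. Markers of immature thymocytes were also listed as lower: all 6 on the list used here (Rag1, Rag2, Dntt, Cd24a, Ptcra and Arpp21), with differences of -1.19 to -5.05. Their summed linear signal was 2272 in wild type and 154 in CIITAtgpIV-/-. The list was drawn up with earlier results of these data known, so its count and sum are a description only. Rag2 was below the floor in both arrays. Of all probe sets in the range 3.51% differed by at least 2-fold, and 73.0% of listed genes past the floor were lower. The part of immature or dividing cells in the lower transport genes was not tested.

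Of the electron carriers, Cyb5, named Cyb5a in RefSeq, which passes electrons to desaturases of the endoplasmic reticulum, had 9.81 and 8.80, a difference of -1.01. Cyb5 came under 2-fold with quantile normalisation or loess. Cybb, the catalytic chain of the phagocyte NADPH oxidase, had 5.21 in wild type and 3.71 in CIITAtgpIV-/-, a difference of -1.50 with both values below the floor. Cybb is also 1 of 10 myeloid markers on a list drawn up with earlier results of these data known. Of these 10, 4 were listed (Cybb, Itgax, Lyz2 and Mpeg1), all lower, with differences of -1.11 to -2.94. The summed linear signal of these 4 was 229 in wild type and 51.9 in CIITAtgpIV-/-. Each of the 4 was listed as lower, so a fall of the sum was set in advance. The unlisted markers are not in it, and the part of myeloid cells in the value of Cybb was not tested. Itgax, like Cybb, was below the floor in both arrays. For comparison, 3.51% of all probe sets in the range differed by at least 2-fold, and 73.0% of listed genes past the floor were lower. Haemoglobin transcripts, 2 of 9 red cell markers, differed by -2.98 and -3.84. None of the 7 B cell, 7 NK cell and 5 CD8 T cell markers on such lists was listed. The labelled cell type could therefore not be checked by its own markers. These lists are short and were matched by exact symbol, so other genes of those cells, or the same genes under another symbol, may be listed.

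Genes nearest the threshold show how the list ends. On the higher side the last members were Kcnk5 at 1.21 and Mcart6 at 1.19, and the nearest probe sets outside, which the files used here do not name, stood at 0.997 and 0.996. On the lower side Mcoln3 and Cyb5 stood at -1.01 and the nearest probe sets outside at -0.9996 and -0.9986. Among the 36 genes past the floor, 18 differed by less than 1.3 in size.

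The rule did not read cellular component or chromosome, but component is tied to the terms it did read. A transport term favours membrane proteins, and the excluded words, such as transcription and mitosis, take out genes of nuclear roles. Terms such as electron transport chain, held by Cyb5 and Cybb, can also bring in genes annotated to the mitochondrion. The shares for membrane, nucleus and mitochondrion below are therefore partly set by the rule and describe the members only. Of the members with a cellular component annotation, 9 of 10 higher genes and 17 of 26 lower genes were annotated as integral to membrane, against 47.8% of all listed higher genes and 19.4% of all listed lower genes. Annotation to the nucleus was held by 0 of 10 higher and 6 of 26 lower members (Clic1, Kpna2, Plin2, Rab3ip, Thoc4 and Tmem48), where all listed genes had 20.4% and 52.9%. The mitochondrion was named for 0 of 10 higher and 4 of 26 lower members (Cpt1a, Cyb5, Cybb and Slc25a13), where all listed genes had 1.91% and 3.20%. Only the exact term was counted, and Mcart6, a higher gene of the mitochondrial carrier family, does not hold it. On chromosome X lay 3 of 11 higher members, Mcart6 and Slc9a7 among them, and 2 of 26 lower ones (Cybb and Gria3), against 5.07% and 2.79% of all listed genes in each direction.

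Wider lists of transport genes were compared with the authors' table. Of 143 genes on 8 lists of nutrient carriers, ion channels and pumps, ABC transporters, metal transport, secretory traffic, nuclear transport, mitochondrial carriers and lipid transport, 8 were listed, 3 higher (Abcb1a, Kcnk5 and Lyst) and 5 lower (Abcg2, Fabp5, Kpna2, Nup62 and Slc25a13), while 3.51% of all probe sets in the range differed by at least 2-fold. None of the 17 nutrient carriers, which include the glucose transporter Slc2a1 and the amino acid transporter Slc7a5, and none of the 13 metal transport genes was listed. At 3.51%, lists of this size would often hold no listed gene, so these zeros show nothing particular to the lists. Nup62, a central channel nucleoporin and the only one of the 8 that is not a member, was 2.26-fold lower, from 9.32 to 8.14. The files used here name no probe set under 2-fold, so the size of the difference of an unlisted gene is unknown.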

How the data were processed

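RNA of CD8 single-positive thymocytes was hybridised to 1 Affymetrix array per genotype. The authors deposited log2 signals of 35556 probe sets, made with GCOS and RMA per the submitters' processing notes. They also deposited a table of 1003 probe sets with a log2 ratio. The series' design text, which names Expression Console 1.1 and affy 2.9.2, gives a selection at 2-fold and a false discovery rate of 10%. The 2-fold cut alone gives the same 1003 probe sets in the listed range. With 1 array per genotype, no false discovery rate could be checked here, so members are not taken to have passed one. No source used here names the array type or genome build. All 1003 deposited log2 ratios match, within 0.1, the value table's CIITAtgpIV-/- minus wild-type difference, and so share its direction. The 2 signal columns of that table were not used.

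Members were taken by the annotation rule given in the report, with levels from the value table. The members, roles and lists were chosen with earlier results of these data known. Where a gene had several listed probe sets, the brightest on average stood for it. Named genes were the 12 members with the largest difference in each direction past the floor, up to 4 per role, those with several probe sets, the 4 nearest 2-fold and those on the fixed lists, and the remaining members are named too, except 1 gene that is counted but not reported here. RefSeq matched all 37 members, and 4 have another symbol there. Python 3.11.15, pandas 2.3.3 and statsmodels 0.14.6 (loess, span 0.3) were used. Median centring, quantile normalisation, loess, other floors, 3-fold and 4-fold thresholds and other annotation words were tried as alternatives. The code of the normalisations and ranks was run on simulated data with 200 changed probe sets, drawn evenly in both directions. The real data had 279 probe sets higher and 724 lower past 2-fold, so the simulation does not show how the normalisations handle that skew.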

Additional observations from a re-analysis of the deposited data

How the results depend on the processing

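All 148 values of single genes under median centring, quantile normalisation, loess and the mean over probe sets kept their direction and moved by less than the robust standard deviation of 0.25. The direction is a weak check because members were chosen for a difference of at least 2-fold. The size of the move is one too for many of these values. The mean over probe sets could not change the 34 genes with 1 probe set, and median centring shifts every gene by the same 0.031. Clic1, Cyb5 and Mcoln3 came under 2-fold with quantile normalisation and with loess. With the floor at the 75th percentile (7.50), 5 genes were higher and 13 lower. The medians were then 2.32 for ABC transporters, against -1.13, since Abcb1a alone was left, -1.01 for channels, against 0.10, 1.47 for solute carriers, against -0.0048, -3.30 for kinesins and -1.61 for lipid transport, since fewer genes remained. Medians of channels and solute carriers lie between 2 separate groups and describe neither. At 3-fold, 6 genes were higher and 7 lower, and 1.51% of probe sets passed. At 4-fold, 4 genes were higher and 3 lower, and 0.931% passed. Other choices of words, counting equal values once and leaving out Nutf2, the last added after seeing the data, kept the counts within 1.5 times. No paired analysis was possible because there is only 1 array per genotype, and no array could be left out. Folds of genes below the floor are limited by signal over background.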

Other observations

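Transport families outside the annotation rule were also listed, and were picked here by symbol after their values were seen. Of 12 listed kinesin genes all 12 were lower, 10 of them without a transport term, where 73.0% of all listed genes past the floor were lower. Of 3 listed myosin genes, Myo1f and Myo10 had log2 differences of 1.35 and 1.16, and Myo9a one of -1.02. Kif11, which drives spindle poles apart, was 18.7-fold lower, with signals of 9.73 and 5.50. Kif15, Kif2c and Kif4 were 14.2-fold, 14.1-fold and 14.1-fold lower, and the smallest difference was that of Kif24, -1.17. These 10 had a median difference of -2.68, where Kif18a and Kif20a had -1.86 and -3.30.

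Among solute carriers without a transport term, Slc43a3, a purine nucleobase transporter, was 7.91-fold lower, from 8.64 to 5.66. Slc27a6, a fatty acid transport protein, was 2.27-fold lower. Slc16a5, a monocarboxylate transporter of the family of Slc16a10, was 2.44-fold higher, from 7.32 to 8.61. The other listed aquaporin, Aqp11, which the rule leaves out, was 20.5-fold lower, from 8.68 to 4.32, opposite in direction to Aqp9.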
